A study of Mus musculus with 12 samples.

Results

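The MYC, MAX and MXD network was followed through its 10 genes Myc, Mycn, Max, Mxd1, Mxd3, Mxd4, Mxi1, Mnt, Mlx and Mga, chosen by gene symbol from the 37991 genes counted in each sample. Each symbol matched 1 gene. The members, and the lists of related genes used below, were chosen with earlier results of these data known. The RNA came from splenic resting B cells of 8-week-old mice. Runx1 c-k/o mice, here also called c-k/o, carried a floxed Runx1 allele, with loxP sites around exon 4, and a CD23-iCre transgene that is first active at the transitional B cell stage. Cre-only mice carried the same transgene alone, so both genotypes expressed Cre. Cells were taken at 0 h (resting) or after 3 h with anti-IgM, which crosslinks the BCR, and IL-4, in 3 replicates for each of the 4 groups and 12 samples in all. The comparisons ask how the network changes within 3 h of activation and whether loss of Runx1 alters it at either time. No group was kept for 3 h without anti-IgM and IL-4. A change on activation, as the term is used here, therefore joins the stimulus and the 3 h of incubation, which cannot be told apart.

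MYC is a transcription factor of the basic helix-loop-helix leucine zipper class that drives cell growth, and its gene is one of the early targets of BCR signaling. It binds DNA only as a dimer with MAX, on E-box sequences of which CACGTG is the best known. The proteins MXD1, MXI1, MXD3, MXD4 and MNT also pair with MAX on these sites but recruit SIN3 and HDAC corepressors. MLX pairs with MXD1, MXD4 and MNT and with the nutrient-responsive MondoA (Mlxip), and MGA joins MAX to a Polycomb complex, PRC1.6.

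Because the network proteins themselves bind CACGTG, promoter windows of the members were searched for it. The windows reach from 250 bases before to 50 bases after each RefSeq start (GRCm38.p6), and 9 of the 10 members had at least 1. The member without a window was Myc, so its promoter was not searched for either motif. The windows of Max, Mlx, Mxd4 and Mnt held 1 CACGTG each, a motif found in 7.15% of the 32851 mouse windows of this length. In Max the motif began 3 bases before the start and ran across it, in Mlx it began 40, in Mnt 123 and in Mxd4 219 bases before the start. The RUNX core motifs TGTGGT and TGCGGT were searched on both strands. TGCGGT occurred once in Max, 106 bases before the start, and once on the minus strand in 1 of the 3 windows of Mxi1. Either RUNX motif occurs in 22.4% of all windows. These matches describe letters in the windows and carry no measurement of binding. The 4 windows with CACGTG are printed 5′ to 3′ on the strand of the gene, with the motifs in capitals. They are chr12:76962199-76962498 (minus strand, Max), chr11:101087040-101087339 (plus strand, Mlx), chr5:34187661-34187960 (minus strand, Mxd4) and chr11:74830674-74830973 (plus strand, Mnt).

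Max: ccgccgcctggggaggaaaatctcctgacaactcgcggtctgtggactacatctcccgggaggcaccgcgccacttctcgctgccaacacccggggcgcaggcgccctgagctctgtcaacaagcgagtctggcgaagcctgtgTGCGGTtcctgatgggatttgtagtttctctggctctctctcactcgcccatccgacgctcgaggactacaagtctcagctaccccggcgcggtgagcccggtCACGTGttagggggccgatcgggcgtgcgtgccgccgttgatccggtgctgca

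Mlx: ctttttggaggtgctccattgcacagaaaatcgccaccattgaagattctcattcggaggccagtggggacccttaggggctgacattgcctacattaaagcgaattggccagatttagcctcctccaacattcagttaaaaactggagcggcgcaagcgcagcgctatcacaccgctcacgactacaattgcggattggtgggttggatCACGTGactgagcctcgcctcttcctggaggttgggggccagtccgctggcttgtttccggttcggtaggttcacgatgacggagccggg

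Mxd4: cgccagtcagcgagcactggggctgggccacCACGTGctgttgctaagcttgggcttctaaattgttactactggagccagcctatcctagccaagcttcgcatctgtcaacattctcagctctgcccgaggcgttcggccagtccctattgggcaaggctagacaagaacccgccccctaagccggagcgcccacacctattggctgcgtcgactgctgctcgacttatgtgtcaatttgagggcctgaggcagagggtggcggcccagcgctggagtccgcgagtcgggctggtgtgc

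Mnt: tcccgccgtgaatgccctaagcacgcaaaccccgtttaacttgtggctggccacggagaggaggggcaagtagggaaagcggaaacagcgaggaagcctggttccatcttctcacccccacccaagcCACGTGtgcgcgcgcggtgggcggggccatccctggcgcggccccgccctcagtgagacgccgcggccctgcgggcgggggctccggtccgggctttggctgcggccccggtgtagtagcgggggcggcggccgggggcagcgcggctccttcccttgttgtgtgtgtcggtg

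Between 14442251 and 23641552 reads were counted on genes in each sample, and 3 counts, taken as the floor of detection, correspond to 0.127 to 0.208 CPM. Levels are given as normalized CPM, that is counts per 1000000 of the TMM-adjusted library size. Of the 10 members, 9 passed the filter on low counts and were tested with edgeR among 13538 genes, and Mycn did not. Replicate 2 of the resting and replicate 1 of the 3-h c-k/o cells stood apart. Their mean correlation with the other 2 samples of their group was 0.983 and 0.980, against 0.984 to 0.988 in the other c-k/o samples and 0.993 in every Cre-only sample. In these 2 samples genes with at least 8 kb of exon lay below the rest of their group, by a median of 0.24 and 0.52 on the log2 scale. The log2 differences of Myc, Mga and Mnt on activation and between genotypes at 3 h that these samples move are given with and without them. So is the genotype difference of Myc at rest. The genotype differences of Mga and Mnt at rest and the interaction terms of Myc and Mga are given with all samples only. All 10 B cell markers matched were present, with sums of 16569 to 17318 CPM in resting Cre-only and 17906 to 19610 in resting c-k/o cells, and of 7714 to 8046 and 7903 to 8900 at 3 h. Sums for 8 myeloid markers were 237 to 457 CPM in resting and 28.2 to 61.1 in 3-h samples. Erythroid sums (4 markers) were 36.1 to 253 CPM in resting Cre-only and 246 to 409.7 in resting c-k/o cells. Erythroid sums at 3 h were 12.3 to 136 CPM in Cre-only and 115 to 203 in c-k/o cells. Those for 5 marginal zone B cell markers were 1112 to 1427 in resting Cre-only and 1607 to 1733 in resting c-k/o cells, and 2325 to 2614 and 2649 to 3325 at 3 h. The 4 plasma cell markers summed to 286 to 348 CPM in 3-h Cre-only and 398 to 439 in 3-h c-k/o cells. At rest these 4 summed to 195 to 264 CPM in Cre-only and 165 to 401 in c-k/o cells. Of 8 T cell markers 4 passed the filter, and all 8 summed to 39.1 to 46.4 CPM at rest and 70.6 to 79.6 CPM at 3 h in Cre-only cells, and to 34.4 to 47.2 and 74.7 to 96.0 CPM in c-k/o cells. No marker was at 0 in every sample of a group, and the part of other cells in the results was not tested. The deletion removes 1 exon, and Runx1 counts were not reduced: they were 81.8 to 86.7 CPM in resting Cre-only and 95.7 to 103 CPM in resting c-k/o cells, and 34.9 to 38.5 and 47.3 to 74.5 CPM at 3 h, where Runx1 was called higher in c-k/o cells (log2 0.80, edgeR adjusted p = 0.00769). They therefore do not check the genotype labels.

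After activation Myc was higher and the genes of 3 of its competitors for MAX were lower in both genotypes. In Cre-only cells, 6 of the 9 tested members passed the test after 3 h: Myc, Max and Mga were higher, and Mxd3, Mxd4 and Mxi1 were lower. At the same threshold (edgeR, adjusted p under 0.05) 75% of all tested genes were called, so this share of the members lay below the background. Resting and 3-h samples did not overlap for those 6, as for 84.4% of all tested genes. In c-k/o cells 4 of the 9 were called, with Myc higher and Mxd3, Mxd4 and Mxi1 lower, against 74.3% of all genes, and these 4 did not overlap, where 72.8% of all genes did not. The median log2 fold change of the 9 members was 0.10 in Cre-only and -0.03 in c-k/o cells, beside 0.03 and 0.00 for all tested genes. In RNA from whole cell samples, fewer cells of a type and less RNA of a gene per cell cannot be told apart.

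**Figure D1:**
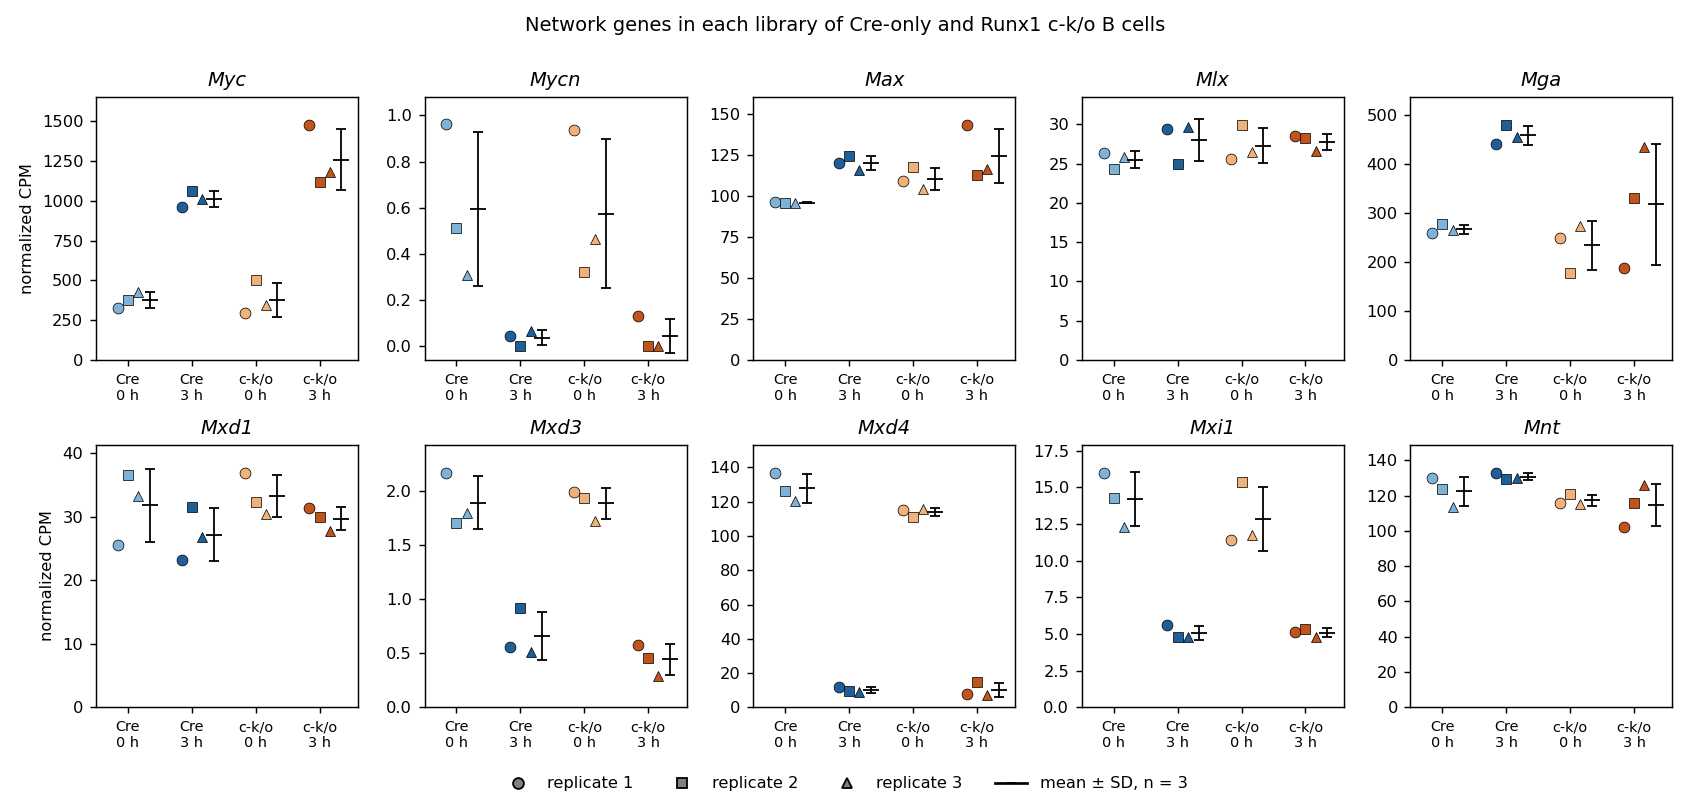
Normalized CPM of the 10 network genes (linear axes, 1 panel per gene) in the 3 replicates of each group, with mean ± SD in black. Myc rises and Mxd3, Mxd4 and Mxi1 fall at 3 h in both genotypes, Mnt and Mlx stay within 102 to 133 and 24.3 to 29.9 CPM, and Mga spreads from 189 to 435 CPM in 3-h c-k/o cells.

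Myc (ENSMUSG00000022346, NCBIM37 chr15:61816946-61821929, plus strand) encodes the activating partner of MAX. It stood at 328, 374 and 425 CPM in replicates 1, 2 and 3 of resting Cre-only cells and at 964, 1064 and 1015 CPM after 3 h. In c-k/o cells the values were 293, 500.2 and 343 CPM at rest and 1475, 1119.7 and 1183 CPM after 3 h. Every 3-h sample lay above every resting sample of its genotype. Myc RNA rose 2.70-fold in Cre-only cells, or 1.43 on the log2 scale (standard error 0.186, edgeR adjusted p = 1.79e-05). The rise in c-k/o cells was 3.33-fold (log2 1.73, standard error 0.188, edgeR adjusted p = 3.98e-06). The highest resting and the highest 3-h value of c-k/o cells both belonged to the samples that stood apart, and without these 2 the log2 fold change was 1.83 (edgeR adjusted p = 2.07e-09). The log2 fold change of Myc was moved by 1 RUVs factor, a term meant for unwanted variation. In edgeR it was 0.82 in Cre-only and 1.13 in c-k/o cells, and in DESeq2 0.71 and 1.06, all called. That factor was above 0 in every resting and below 0 in every 3-h sample, so it is not separate from activation.

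Mycn (ENSMUSG00000037169, chr12:12942902-12948720, minus strand), the paralog best known from neural and progenitor cells, was near the floor. It had 20, 9 and 5 counts in resting Cre-only and 16, 5 and 7 in resting c-k/o cells. After 3 h Cre-only cells had 1, 0 and 1 counts and c-k/o cells had 2, 0 and 0, all under the floor of 3 counts. DESeq2, which was run without that filter, called it lower after activation in both genotypes (adjusted p = 0.00238 in Cre-only and 0.00462 in c-k/o cells).

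Max (ENSMUSG00000059436, chr12:78038256-78063235, minus strand) encodes the shared partner of the network. Its levels were 96.2, 95.7 and 95.6 CPM in resting Cre-only cells and 119.8, 124 and 116 CPM after 3 h, with no overlap. The rise was 1.25-fold (log2 0.32, standard error 0.0944, edgeR adjusted p = 0.00799). Max in c-k/o cells was at 109, 117 and 104 CPM at rest and at 143, 113 and 116 CPM after 3 h. These groups overlapped, and the log2 difference of 0.17 (95% interval -0.04 to 0.38) was not called (edgeR adjusted p = 0.12). With 1 RUVs factor of unwanted variation in the edgeR fit the Max value turned to -0.02 in Cre-only and -0.19 in c-k/o cells, neither called. In c-k/o cells it was called lower with the factor in DESeq2 (log2 -0.26, adjusted p = 0.0195) and higher without 3-h replicate 2 (log2 0.24, edgeR adjusted p = 0.0462). With only genes of at least 10 counts in every sample the Cre-only value was 0.16 and lost its call (edgeR adjusted p = 0.114). The RUVs factor itself moved with time: it lay between 0.134 and 0.736 in resting samples and between -1.42 and -0.274 in 3-h samples.

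Of the MXD family, Mxd4 changed most. Mxd4 (ENSMUSG00000037235, chr5:34516536-34530369, minus strand) stood at 137, 126 and 120.3 CPM in resting Cre-only cells and at 11.9, 9.67 and 8.79 CPM after 3 h. Its values in c-k/o cells were 115, 111 and 116 CPM at rest and 7.79, 14.9 and 7.42 CPM after 3 h. The fall was 12.6-fold in Cre-only (log2 -3.65, standard error 0.221, edgeR adjusted p = 3.88e-08) and 11.4-fold in c-k/o cells (log2 -3.51, standard error 0.221, edgeR adjusted p = 6.77e-08). Resting and 3-h samples were far apart in both genotypes.

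Mxi1 (ENSMUSG00000025025, chr19:53384996-53450300, plus strand), which encodes a repressor close to MXD1, stood at 16, 14.3 and 12.3 CPM in resting Cre-only cells and at 5.65, 4.83 and 4.78 CPM after 3 h. The c-k/o values were 11.4, 15.4 and 11.7 CPM at rest and 5.15, 5.38 and 4.77 CPM after 3 h. The log2 fold changes were -1.48 (edgeR adjusted p = 2.29e-06) and -1.33 (edgeR adjusted p = 6.8e-06), and the groups did not overlap. The exons of Mxi1 overlap Gm10197 on the opposite strand, and the strand setting of the counting is not stated, so reads of the 2 genes may not be separated.

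Mxd3 (ENSMUSG00000021485, chr13:55426529-55431119, minus strand), the family member linked to proliferating cells, was low throughout. It fell from 2.17, 1.71 and 1.8 CPM to 0.561, 0.915 and 0.510 CPM in Cre-only cells (log2 -1.53, edgeR adjusted p = 0.000219). It fell in c-k/o cells from 1.99, 1.94 and 1.73 CPM to 0.579, 0.459 and 0.294 CPM (log2 -2.08, edgeR adjusted p = 3.99e-05). Its exons overlap Prelid1 on the opposite strand.

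Mxd1 (ENSMUSG00000001156, chr6:86597038-86619153, minus strand), the founding MAX dimerization repressor, was not called in either genotype. Its values were 25.5, 36.6 and 33.2 CPM in resting and 23.3, 31.5 and 26.8 CPM in 3-h Cre-only cells, with wide overlap. They were 36.9, 32.4 and 30.4 CPM in resting and 31.4, 29.9 and 27.8 CPM in 3-h c-k/o cells. The log2 differences were -0.23 (95% interval -0.54 to 0.09) and -0.16 (-0.48 to 0.16), and both intervals include 0. In Cre-only cells Mxd1 was called lower in 3 of 16 alternatives, with -0.35 by library size alone, -0.39 with at least 10 counts in every sample and -0.36 without resting replicate 1 (edgeR adjusted p = 0.0407, 0.0326 and 0.0365).

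Mnt (ENSMUSG00000000282, chr11:74644422-74659227, plus strand) encodes the repressor partner expressed in most cell types. It stood at 129.7, 124 and 114 CPM before and at 133, 129 and 130 CPM after activation of Cre-only cells. The c-k/o values of Mnt were 116, 121 and 115 CPM at rest and 102, 116 and 126 CPM at 3 h. The log2 differences on activation were 0.10 (95% interval -0.10 to 0.29) and -0.03 (-0.22 to 0.16), and neither was called. Both intervals leave out a change of the size seen for Mxd4.

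Mlx (ENSMUSG00000017801, chr11:100948591-100953521, plus strand) lay between 24.3 and 29.9 CPM in all 12 samples. Its log2 differences were 0.14 (95% interval -0.07 to 0.35) in Cre-only and 0.03 (-0.19 to 0.24) in c-k/o cells. Its exons overlap Psmc3ip on the opposite strand.

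Mga (ENSMUSG00000033943, chr2:119722964-119795317, plus strand), a T-box and helix-loop-helix protein with 15.34 kb of exon, rose in Cre-only cells from 259, 278 and 265 CPM to 442, 479.6 and 455 CPM. The rise was 1.72-fold (log2 0.78, standard error 0.238, edgeR adjusted p = 0.0102). Mga in c-k/o cells was at 249.6, 178 and 274 CPM at rest and at 189, 330.0 and 435 CPM at 3 h, where the groups overlapped. That difference was not called (log2 0.44, 95% interval -0.08 to 0.96, edgeR adjusted p = 0.11). The low values in each group, 178 and 189 CPM, were those of the samples that stood apart. Without replicate 1 of the 3-h c-k/o cells the difference was 0.69 (edgeR adjusted p = 0.00212), and without both samples it was 0.52 (edgeR adjusted p = 0.000176). Leaving out 3-h replicate 3, the highest of its group, gave 0.16 (edgeR adjusted p = 0.521), and leaving out resting replicate 2 gave 0.29 (edgeR adjusted p = 0.297). With 1 RUVs factor in edgeR the value was 1.87 in Cre-only and 1.51 in c-k/o cells, both called. Whether the change in Mga on activation differed between genotypes was tested directly: the difference was -0.34 (95% interval -1.07 to 0.39, edgeR adjusted p = 0.999). This value is from all samples, and the c-k/o change that enters it ran from 0.16 to 0.69 with 1 sample left out.

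**Figure D2:**
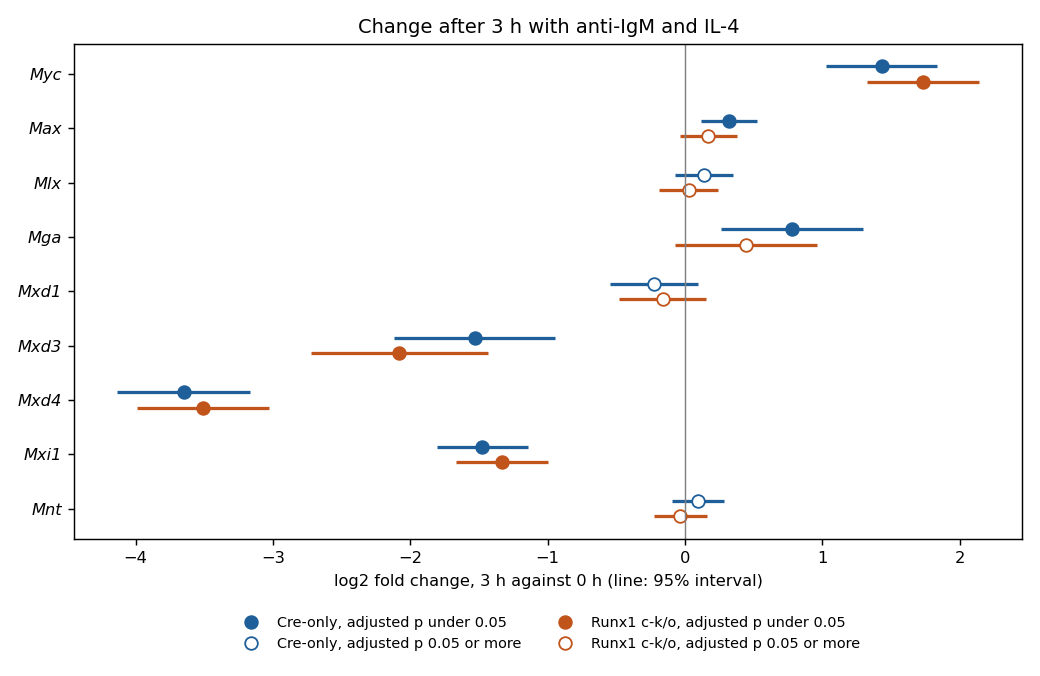
Log2 fold change on activation for the 9 tested network genes in Cre-only (blue) and c-k/o (orange) cells, with 95% intervals. Filled points passed an adjusted p under 0.05: Mxd4 lies lowest, at -3.65 and -3.51, and Myc highest, at 1.43 and 1.73.

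In the 2 samples that stood apart, Mga lay 0.55 (resting replicate 2) and 1.005 (3-h replicate 1) below the mean of the other 2 samples of the group on the log2 scale. Myc lay 0.66 and 0.36 above it. In Cre-only samples Mga deviated by 0.10 or less in either direction, and Myc by up to 0.28. Replicate 3 of the 3-h c-k/o cells lay on the other side, with Mga 0.80 above the mean of the other 2. The deviations of these 2 samples fell with exon length across 13514 genes (Spearman correlation across genes -0.314 and -0.375, where genes are not independent replicates). In the other 4 c-k/o samples they rose with it, by 0.194 to 0.392, the highest in 3-h replicate 3, and in Cre-only samples the correlation was between -0.0515 and 0.0616. The deviations of samples of a group are set against each other and are not independent. With the exon-length trend removed from each sample, the Mga difference between genotypes at 3 h was -0.30 (edgeR adjusted p = 0.134) and that of Myc 0.27 (edgeR adjusted p = 0.427).

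**Figure D3:**
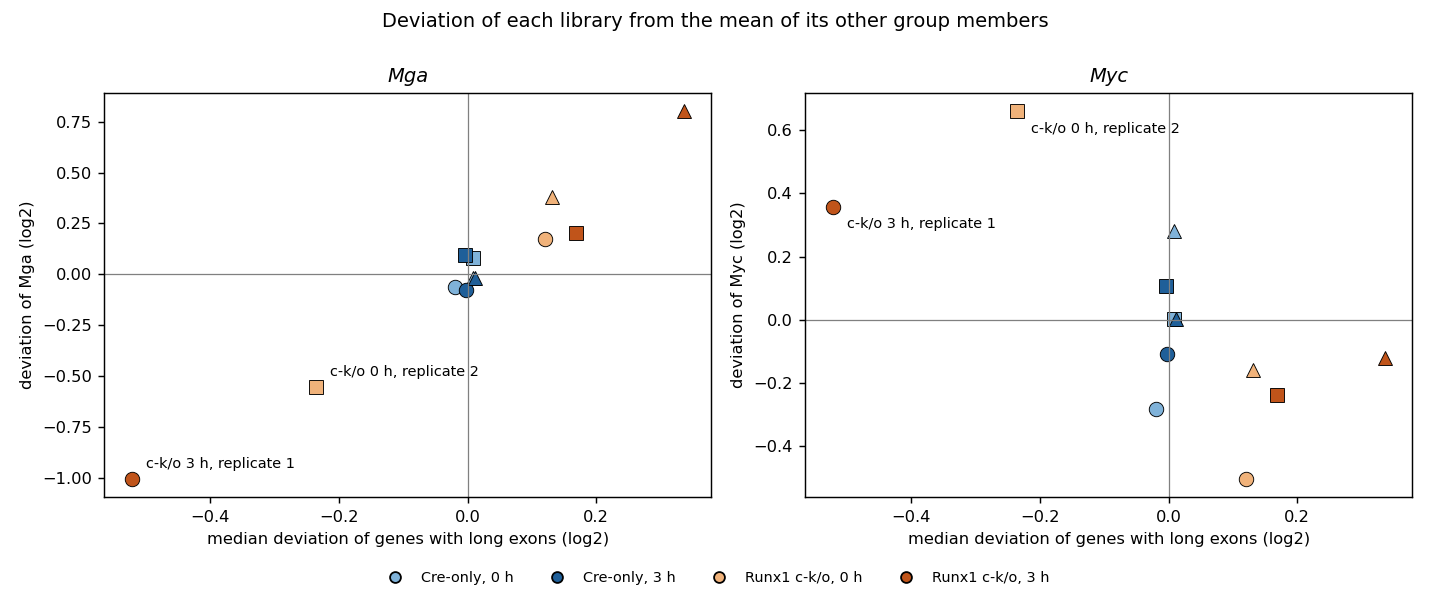
Deviation of Mga (left) and Myc (right) in each of the 12 samples from the mean of the other 2 samples of its group, on the log2 scale, against the median deviation of the 1240 genes with at least 8 kb of exon. The 2 labelled c-k/o samples lie at -0.24 and -0.52 on the horizontal axis, with Mga at -0.55 and -1.005 and Myc at 0.66 and 0.36. Circles, squares and triangles are replicates 1, 2 and 3.

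Per kb of exon, which allows levels to be compared between genes, Myc was the most abundant member in every group, at 138 ± 18.0 CPM per kb (SD, n = 3) before and 373 ± 18.5 after activation of Cre-only cells. Max followed at 47.8 ± 0.173 and 59.8 ± 2.07. In resting Cre-only cells the order below these was Mxd4 (32.9 ± 2.16), Mnt (26.4 ± 1.74), Mga (17.4 ± 0.600), Mlx (12.7 ± 0.543), Mxd1 (6.82 ± 1.22), Mxi1 (2.53 ± 0.326), Mxd3 (0.909 ± 0.117) and Mycn (0.181 ± 0.102). Neighbors in this order did not overlap. At 3 h Mga and Mnt came next after Max, at 29.9 ± 1.24 and 28.3 ± 0.411 CPM per kb, and Mxd4 had moved below Mlx and Mxd1 to 2.60 ± 0.408. The resting order in c-k/o cells was the same, with 139 ± 39.9 CPM per kb for Myc and 29.4 ± 0.611 for Mxd4, but Mga and Mlx overlapped. At 3 h the ranges of Mnt and Mga, and of Mga and Mlx, overlapped in c-k/o cells.

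The repressor side of the network was summed over Mnt, Mxd4, Mxd1, Mxi1 and Mxd3, per kb of exon. The sum was 69.6 ± 3.51 CPM per kb (SD, n = 3) before and 37.9 ± 0.646 after activation of Cre-only cells, and 65.0 ± 0.827 and 34.9 ± 2.45 in c-k/o cells. Mxd4 made up 47.3% ± 1.22 of this sum in resting Cre-only cells and 6.86% ± 1.03 at 3 h. Mnt made up 38.0% ± 0.601 at rest and 74.5% ± 1.68 at 3 h. The share of Mxd4 in c-k/o cells went from 45.1% ± 1.33 to 7.36% ± 2.79 and that of Mnt from 39.0% ± 0.886 to 71.0% ± 3.85. Thus the composition of the repressor transcripts moved from mostly Mxd4 and Mnt to mostly Mnt in both genotypes.

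The level of Myc divided by this sum was 1.66, 1.95 and 2.38 in resting Cre-only cells and 9.32, 10.18 and 10.04 after 3 h. The c-k/o ratios were 1.64, 2.81 and 1.97 at rest and 16.9, 11.3 and 12.1 after 3 h. All 3-h ratios lay above all resting ratios, and the 3-h c-k/o ratios lay above those of 3-h Cre-only cells. The highest value, 16.9, belonged to the sample that stood apart, and the mean of the other 2 was 11.7 against 9.85 ± 0.457 (SD, n = 3) in Cre-only cells. The ratio of Myc to Max was 2.89 ± 0.386 at rest and 6.25 ± 0.277 at 3 h in Cre-only cells, and 2.52 ± 0.588 and 7.49 ± 0.149 in c-k/o cells. The samples that stood apart had the highest Myc to Max ratios of their groups, 3.15 against 1.98 and 2.43 at rest and 7.62 against 7.32 and 7.52 at 3 h. These ratios describe transcripts, were formed from members with known changes, and were given no test.

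**Figure D4:**
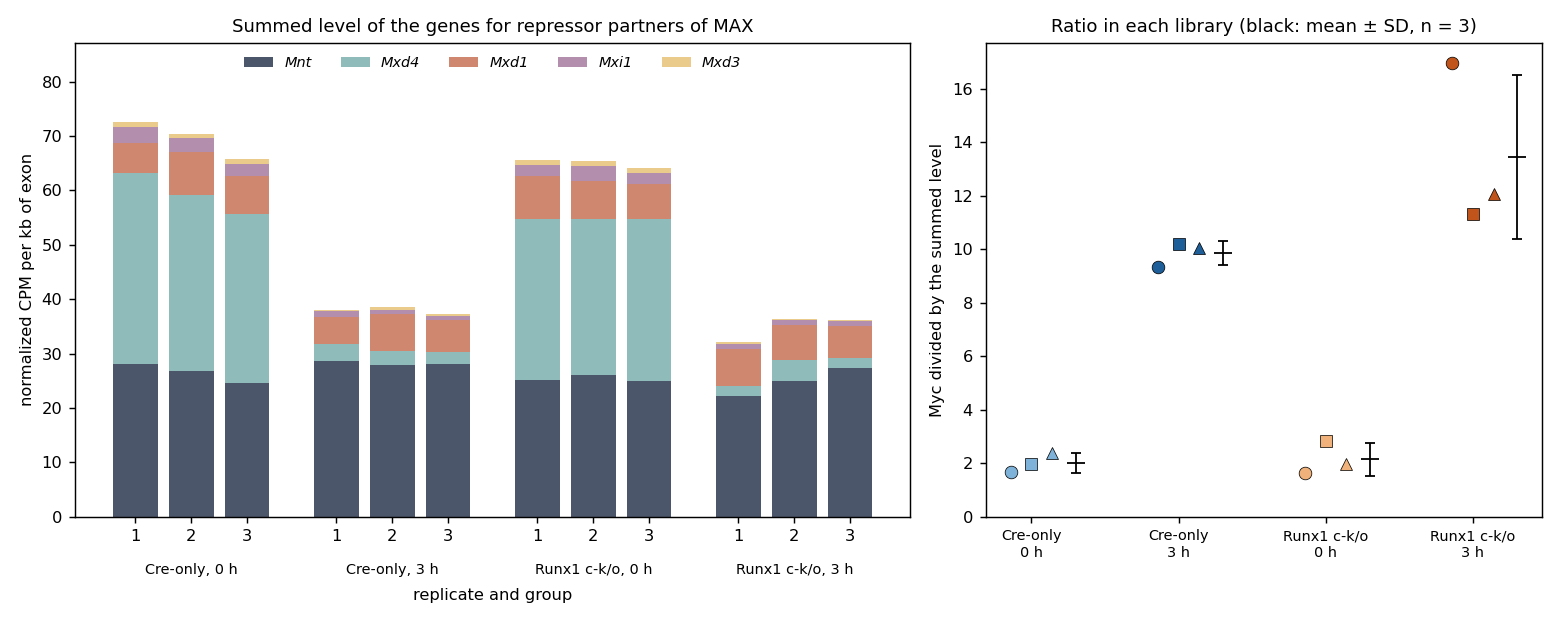
Left, normalized CPM per kb of exon of Mnt, Mxd4, Mxd1, Mxi1 and Mxd3, stacked, in each replicate. Right, the level of Myc divided by that sum in each replicate, with mean ± SD in black. The ratio lies between 1.64 and 2.81 at rest and between 9.32 and 16.9 at 3 h.

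In the edgeR fit without an added factor no tested member differed past the threshold between genotypes at either time. At rest 0 of the 9 tested members differed between c-k/o and Cre-only cells, where 1.49% of all tested genes were called. At an unadjusted p under 0.05 the count was again 0 by edgeR and 0 by DESeq2, beside 11.1% of all genes by edgeR. The median log2 difference of the members was -0.01, beside 0.03 for all genes. Myc differed by 0.01 (95% interval -0.39 to 0.41), and by -0.24 without replicate 2 of the resting c-k/o cells (edgeR adjusted p = 0.825). With that sample included, Mga differed by -0.19 (95% interval -0.71 to 0.32) and Mnt by -0.06 (-0.25 to 0.13). The Max values of c-k/o cells all lay above those of Cre-only cells (log2 0.20, 95% interval -0.01 to 0.41, edgeR adjusted p = 0.466), and the Mxd4 values all lay below (log2 -0.16, 95% interval -0.59 to 0.26, edgeR adjusted p = 0.762). Groups failed to overlap in 23.7% of all tested genes in this comparison, and in 2 of the 9 members.

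At 3 h 0 of the 9 tested members were called, where 2.77% of all tested genes were. At an unadjusted p under 0.05 the count was 1 by edgeR and 1 by DESeq2, Mga in both, beside 16.2% of all genes by edgeR. Myc was higher in every c-k/o sample than in any Cre-only sample, with means of 1259 ± 189.6 and 1014 ± 50.2 CPM (SD, n = 3). The difference of 0.31 on the log2 scale had a 95% interval of -0.09 to 0.71 and did not pass (edgeR adjusted p = 0.403). Without replicate 1 of the 3-h c-k/o cells it was 0.21 (edgeR adjusted p = 0.711).

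Mga was lower in every 3-h c-k/o sample than in any Cre-only sample, with means of 318 ± 124 and 459 ± 19.0 CPM (SD, n = 3). The log2 difference was -0.53 (95% interval -1.05 to -0.01, edgeR unadjusted p = 0.0456, adjusted p = 0.297). It was -0.24 without replicate 1 of the 3-h c-k/o cells (edgeR adjusted p = 0.64), -0.82 without replicate 3 (edgeR adjusted p = 0.0588), and -0.41 with 1 RUVs factor in edgeR, the setting in which it was called (adjusted p = 0.0404), as it was with the same factor in DESeq2. Mnt was also lower without overlap (log2 -0.19, 95% interval -0.38 to 0.00, edgeR adjusted p = 0.311), and differed by -0.09 without replicate 1 of the 3-h c-k/o cells (edgeR adjusted p = 0.705). Together 3 of the 9 members did not overlap between genotypes at 3 h, against 21.8% of all tested genes. The other differences at 3 h ranged from -0.56 for Mxd3 (95% interval -1.29 to 0.18) to 0.13 for Mxd1 (-0.19 to 0.45).

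**Figure D5:**
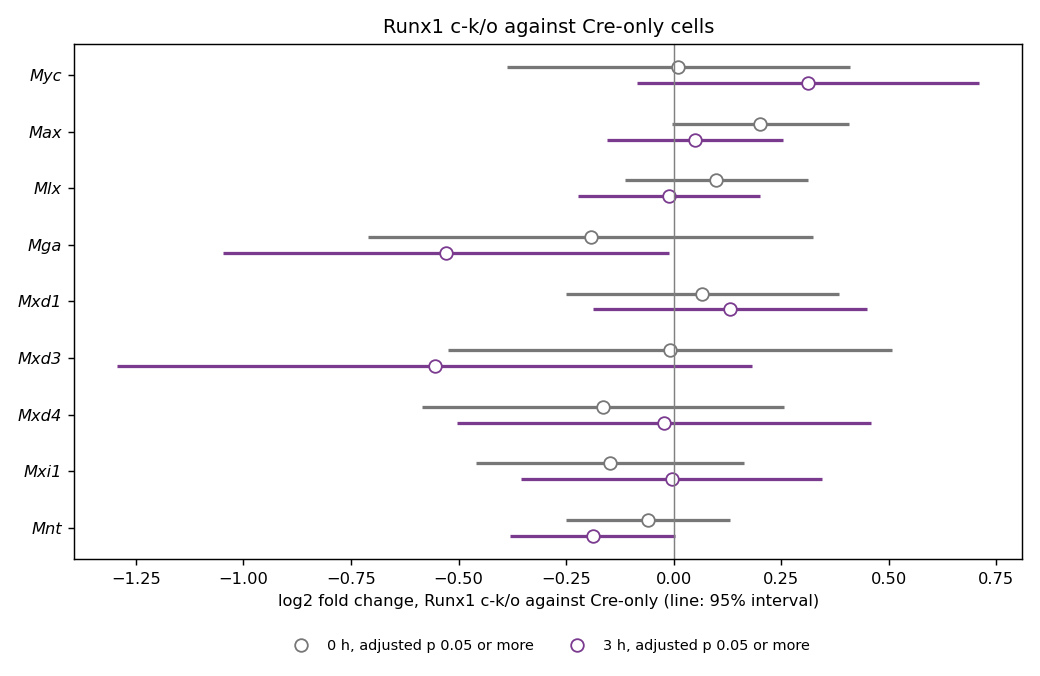
Log2 fold change of c-k/o over Cre-only cells at 0 h (gray) and 3 h (purple) for the 9 tested network genes, with 95% intervals. All points are open, since none passed an adjusted p under 0.05, and the interval of Mga at 3 h, from -1.05 to -0.01, is the one that excludes 0.

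The response to activation did not differ detectably between genotypes for any member. The interaction term was called in 0 of the 9, as it was in 0.0813% of all tested genes, with 0 members at an unadjusted p under 0.05 by edgeR or DESeq2. It was 0.30 for Myc (95% interval -0.26 to 0.86), 0.14 for Mxd4 (-0.50 to 0.78) and -0.55 for Mxd3 (-1.45 to 0.35). These intervals leave room for differences of up to 1.45 on the log2 scale. The Myc term is from all samples. With 1 sample left out, the change in Myc on activation ran from 1.58 to 1.99 in c-k/o and from 1.35 to 1.54 in Cre-only cells.

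The relatives of the network genes were followed as a list of 4. The 3 tested members, Mycl, Bmyc and Mlxip, were called lower after activation in Cre-only cells, where 36.4% of all tested genes were, with a median of -0.70 against 0.03 for all genes. Mycl, listed in the annotation as Mycl1, went from 1.57 to 0.403 CPM, and Mlxip, which encodes MondoA, from 281 to 213 CPM (log2 -0.40, edgeR adjusted p = 0.0465). Over the alternatives the Cre-only log2 value of Bmyc lay between -1.67 and -0.65 and that of Mycl between -3.50 and -1.71. In c-k/o cells Mycl lay between -5.67 and -3.34. With 0.403 CPM in 3-h Cre-only cells and a floor of 0.127 to 0.208 CPM, the size of the Mycl changes is uncertain. The Cre-only call of Mlxip was lost without any 1 of the 6 samples (edgeR adjusted p up to 0.127) and with the replicate block (0.0518, and 0.0848 within genotype), and that of Bmyc without 3-h replicate 1 (0.0579). Mycl and Mlxip were called lower in c-k/o cells and Bmyc was not (log2 -0.46, edgeR adjusted p = 0.0892). All 3 genes, Bmyc among them, were called lower there without 3-h replicate 1 and without the 2 samples that stood apart. With 1 RUVs factor in edgeR the Mlxip value turned to 0.32 and 0.22, neither called, and the c-k/o call was lost without resting replicate 1 (edgeR adjusted p = 0.07). Of 3 known targets of MondoA and MLX, Txnip, an inhibitor of glucose uptake, fell from 967 to 82.5 CPM in Cre-only and from 1229 to 104.5 CPM in c-k/o cells (log2 -3.55 and -3.56). Klf10 was called higher in both (log2 0.61 and 0.81), but not with 1 RUVs factor in edgeR (0.22 and 0.41) or in DESeq2 (0.10 and 0.33). Arrdc4, at under 1 CPM, was called lower in c-k/o cells (edgeR adjusted p = 0.0486), a call lost in 12 of 15 alternatives, among them 5 of the 6 that left out 1 sample (edgeR adjusted p up to 0.145), and was not called in Cre-only cells (edgeR adjusted p = 0.238).

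Genes that MYC is known to activate were raised throughout the list: 30 of 30 were called higher in Cre-only and 30 of 30 in c-k/o cells, where 38.6% and 37.7% of all tested genes were. Their median log2 fold change was 2.32 and 2.19, beside 0.03 and 0.00 for all genes. This list was chosen with earlier results of these data known, so the counts beside all genes describe it and are not a test. Cad, an enzyme of pyrimidine synthesis, went from 96.4, 91.6 and 90.5 CPM to 488, 503 and 515 CPM in Cre-only cells (log2 2.43, edgeR adjusted p = 3.52e-08). Mybbp1a, a nucleolar factor, rose by 2.16 and Prmt5, an arginine methyltransferase, by 2.39 on the log2 scale. The same genes in c-k/o cells rose by 2.27, 1.95 and 2.17. Changes in Cre-only cells ran from 0.86 for Ptma, the prothymosin gene, to 4.20 for Slc7a5, an amino acid transporter, both named for their place in this range after their values were seen.

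Between genotypes 0 of these 30 targets were called at rest and 0 at 3 h by edgeR. Without the 2 samples that stood apart 1 was called higher at rest and 3 at 3 h, where 4.35% and 6.65% of all genes were called in either direction. At rest 29 of the 30 had a value above 0, with a median of 0.28 beside 0.03 for all genes. Without replicate 2 of the resting c-k/o cells it was 13 of the 30, with a median of -0.01. In that sample Srm, the spermidine synthase gene, was at 66.1 CPM, against 20.1 and 20.7 CPM in the other 2 of the group and 18.5 to 19.5 CPM in resting Cre-only cells. Slc7a5 was at 119.7 CPM there, against 41.3 and 38.4 CPM in the other 2 (both genes were picked after their values were seen). At 3 h 24 of the 30 lay above 0 (median 0.19), and 21 of the 30 without replicate 1 of the 3-h c-k/o cells (median 0.06).

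Genes that MYC is known to repress moved mostly the other way. Of 10, 7 were tested, and 6 were called lower in Cre-only cells with a median of -1.57, against 36.4% of all genes called lower (36.6% in c-k/o cells). Cdkn1b, which encodes the cell cycle inhibitor p27, fell from 217 to 37.2 CPM (log2 -2.55, edgeR adjusted p = 3.01e-08), and Hbp1, a transcriptional repressor, from 192.6 to 72.4 CPM. Among c-k/o samples 6 were lower and Cdkn1a, the gene of the inhibitor p21, was higher (log2 0.68, edgeR adjusted p = 0.00156), a call lost with 1 RUVs factor in DESeq2 (adjusted p = 0.054). Cdkn1a was not called in Cre-only cells (log2 0.04).

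Gadd45a, a stress-induced gene of this list that takes part in growth arrest, was the 1 that differed between genotypes at 3 h in the fit of all samples, and 1 more was called without 3-h c-k/o replicate 1, where 2.77% and 2.91% of all tested genes were called. It stood at 39.8, 37.6 and 38.7 CPM in resting Cre-only cells and at 8.20, 6.60 and 7.52 CPM after 3 h. Gadd45a in c-k/o cells was at 43.2, 45.1 and 40.2 CPM at rest and at 17.9, 18.0 and 16.1 CPM after 3 h. It fell in both genotypes and ended higher in c-k/o cells (log2 1.22, standard error 0.103, edgeR adjusted p = 7.2e-05), a call kept in all 17 alternatives. Its change on activation also differed between genotypes (interaction 1.07, standard error 0.138, edgeR adjusted p = 0.0116), but that call was lost with a replicate block within genotype (adjusted p = 0.147) and, of the 12 samples left out in turn, without 5 (up to 0.0601). The block goes by replicate number, which does not join the c-k/o samples that deviated together. Ndrg1, a gene of stress and differentiation, was lower in c-k/o cells at rest, with 8.87, 8.20 and 9.67 CPM in Cre-only and 5.27, 5.49 and 4.65 CPM in c-k/o cells (log2 -0.79, edgeR adjusted p = 0.0205). The Ndrg1 call was lost with either of 5 of the 6 samples left out (edgeR adjusted p up to 0.111).

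Among 21 cofactors and turnover factors of MYC, 16 rose and 2 fell in Cre-only cells (median 0.60), and 13 rose and 3 fell in c-k/o cells (median 0.55). Of all tested genes, 38.6% were called higher and 36.4% lower in Cre-only, and 37.7% and 36.6% in c-k/o cells. The deubiquitinases Usp36 and Usp28 rose by 1.90 and 1.21 on the log2 scale in Cre-only cells, and Wdr5, a chromatin cofactor of MYC, by 1.87. Aurka, which encodes a kinase that stabilizes MYC family proteins, was lower (log2 -0.67, edgeR adjusted p = 0.00249). In the fit of all samples 1 gene of the list differed between genotypes: Cip2a, an inhibitor of the phosphatase that destabilizes MYC (C330027C09Rik in the annotation), was at 9.58, 9.47 and 8.85 CPM in 3-h Cre-only and 4.57, 5.38 and 5.42 CPM in 3-h c-k/o cells. The groups did not overlap (log2 -0.86, standard error 0.147, edgeR adjusted p = 0.00746), and the call was kept in all 17 alternatives. The count of cofactor genes called at 3 h was 2 without the 2 samples that stood apart, with the exon-length trend removed and without 3-h c-k/o replicate 3, and at rest it was 1 without the 2 samples. Of all tested genes 2.77% were called at 3 h with all samples, 6.65%, 3.69% and 4.47% in these 3 settings, and 4.35% at rest without the 2 samples.

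Of 15 genes of the SIN3-HDAC corepressor, through which the MXD proteins act, 6 rose and 5 fell in Cre-only cells (median 0.14), and 7 rose and 5 fell in c-k/o cells (median 0.24), together 11 and 12 of 15, where 75% and 74.3% of all genes were called. The histone deacetylase gene Hdac2 rose by 1.57 and the histone chaperone genes Rbbp7 and Rbbp4 by 1.64 and 0.60 on the log2 scale in Cre-only cells. With 1 RUVs factor in DESeq2 the Rbbp4 value was 0.12 in Cre-only and 0.11 in c-k/o cells, neither called. Ing1, Arid4a and Ing2 fell, by 0.50, 1.10 and 0.95. Of 11 partners of MGA in PRC1.6, 9 rose and 1 fell in Cre-only cells (median 0.69), and 9 rose and 2 fell in c-k/o cells (median 0.55), where 38.6% and 37.7% of all genes were called higher and 36.4% and 36.6% lower. Pcgf6, the RING finger subunit that defines the complex, rose from 21.2 to 128 CPM in Cre-only cells (log2 2.59, edgeR adjusted p = 1.66e-08), Tfdp1, a partner of E2F factors, by 2.08 and L3mbtl2 by 1.23. Tfdp2 fell by 1.54. The Cre-only values of Hdac2, Rbbp7, Arid4a, Ing2 and Tfdp2 were 0.99, 0.86, -0.50, -1.54 and -0.63 with the RUVs factor in DESeq2, all called. No gene of either list differed between genotypes by edgeR at either time.

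The patterns most like those of 3 members over the 12 samples were looked up by Pearson correlation of log2 CPM among the 13537 other tested genes, as a description of samples that share their groups and libraries. Ptges2, Dph5, Acsl3 and Tmem11 were among those nearest to Myc (0.992 to 0.994). Lilrb3, Fcrla, Evl, Susd1 and Siglecg lay nearest to Mxd4 (0.998 to 0.999), with Siglecg going from 584 to 23.9 CPM in Cre-only cells. The nearest gene to Mxd1, which changed little, reached 0.836 (Tub).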

How the data were processed

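RNA of 12 samples was sequenced as stranded, polyA-selected, paired-end libraries with ERCC spike-in RNA added. The authors made reads with CASAVA 1.8.4, aligned them to mm9 with TopHat2 2.0.11, and used featureCounts to count them on genes of the Ensembl annotation. The strand setting and the handling of reads that match several genes are not given in the sources used here, and no spike-in counts were used. The deposited table holds raw counts for 37991 genes, and no column of other samples.

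Groups were taken from the labels. Genes were filtered with filterByExpr of edgeR 4.0.16 (R 4.3.3, minimum count 10), scaled by TMM (factors 0.886 to 1.07), and tested with the quasi-likelihood F test with robust dispersion over all 4 groups. P-values were adjusted by the Benjamini-Hochberg method over 13538 genes, and an adjusted p under 0.05 was the threshold for a call. Standard errors were derived from the F statistic, and intervals are 95%. Levels per kb were divided by the union of a gene's exons. Samples held 14442251 to 23641552 counts on genes, so counting error is small for all members but Mycn and Mxd3. Unless replicates of a group are separate animals, p-values measure only the spread between these samples.

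The alternatives were DESeq2 1.42.0, other scalings and filters, 1 RUVs factor of unwanted variation, a replicate block, fits of the compared groups alone and each sample left out. Omitting the 2 samples that stood apart and removing an exon-length trend were added after the data were seen. The number of RUV factors the authors used is not given in the sources used here. Same-numbered resting and 3-h samples deviated together in Cre-only cells (correlations across genes 0.275, 0.176 and 0.144), but not in c-k/o cells (-0.254, -0.264 and 0.254). The 2 c-k/o samples that stood apart, resting replicate 2 and 3-h replicate 1, deviated together (0.477). So did resting replicate 3 with 3-h replicate 2 (0.309) and resting replicate 1 with 3-h replicate 3 (0.268). A block by replicate number does not join these c-k/o samples. The main fit had no block.

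The members and lists were chosen with earlier results of these data known. The genes to be named were all members, and of each list up to 3 genes per direction and comparison with the smallest adjusted p. For Myc, Mxd1 and Mxd4 these were the 5 genes of most similar pattern, of which 1 is not reported here. The script of the tests was tested on simulated data. Versions of other tools were Python 3.11.15 and matplotlib 3.10.9.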

Additional observations from a re-analysis of the deposited data

Results flagged for a closer look

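Gadd45a, of the genes MYC is known to repress, changed by different amounts in the 2 genotypes, a difference tested directly. It fell by 2.37 on the log2 scale after activation in Cre-only and by 1.30 in c-k/o cells, in all 3 replicates of each. The interaction was 1.07 (standard error 0.138, edgeR adjusted p = 0.0116). Over 23 alternatives its value lay between 0.99 and 1.15. The call was kept in 17 of them and lost in 6, with an edgeR adjusted p of 0.147 with a replicate block within genotype and of 0.0503 to 0.0601 without any 1 of 5 samples (each resting Cre-only sample, 3-h Cre-only replicate 3 and 3-h c-k/o replicate 2). Replicate numbers, on which that block rests, do not join the c-k/o samples that deviated together.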

How the results depend on the processing

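The cause of the changes given here was not tested. The activation calls of Myc, Mxd3, Mxd4 and Mxi1 kept their direction and side of the threshold under every alternative run, with Myc between 0.71 and 1.54 in Cre-only and between 1.06 and 1.99 in c-k/o cells. With 1 RUVs factor in DESeq2, 7 members were called on activation in c-k/o cells. With it, Mga was the 1 member called between genotypes at 3 h, with -0.41 in edgeR and -0.38 in DESeq2. The replicate block changed no member call (6 and 4 members on activation, 0 elsewhere), ended the Cre-only call of Mlxip, a related gene, and, within genotype, left 4 genes of all with a called interaction, against 11 in the main test. Of all genes, 202 were called between genotypes at rest, and 357 by DESeq2, 519 and 587 with the RUVs factor in edgeR and DESeq2, and 598 without the 2 samples that stood apart. At 3 h 375 became 691, 1083, 1302 and 914 in the same order, and 158 with only the compared groups in the fit. The 11 interactions became 75, 137, 260 and 187, and 20 with the exon-length trend removed. With 1 sample left out at a time the counts were 81 to 140, 180 to 617 and 4 to 31. By longest transcript the ratio of Myc to its repressors in 3-h Cre-only cells was 11.3. Mga on activation reached 1.87 and 1.76 in Cre-only and 1.51 and 1.44 in c-k/o cells with the RUVs factor in edgeR and DESeq2, all called.

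Scaling by library size alone moved the median of all genes on activation by -0.12 in both genotypes. The following log2 differences changed sign. Max on activation in Cre-only cells was -0.024 (RUVs in edgeR) and -0.14 (RUVs in DESeq2). Mnt was -0.029 (library size alone) and -0.063 (at least 10 counts in every sample). Mlx was -0.021 (at least 10 counts in every sample) and -0.083 (RUVs in DESeq2). Mlxip was 0.32 (RUVs in edgeR) and 0.21 (RUVs in DESeq2). Max on activation in c-k/o cells was -0.19 (RUVs in edgeR) and -0.26 (RUVs in DESeq2). Mnt was 0.12 (RUVs in edgeR), 0.052 (RUVs in DESeq2) and 0.039 (the 2 samples left out), and from -0.098 to 0.031 with 1 sample left out. Mlx was -0.012 (DESeq2 size factors), -0.089 (library size alone), -0.0082 (no filter), -0.075 (at least 10 counts in every sample), -0.0054 (DESeq2), -0.086 (RUVs in edgeR) and -0.16 (RUVs in DESeq2), and from -0.019 to 0.10 with 1 sample left out. Mlxip was 0.22 (RUVs in edgeR) and 0.14 (RUVs in DESeq2). Myc between genotypes at rest was -0.037 (library size alone), -0.019 (at least 10 counts in every sample), -0.10 (RUVs in edgeR), -0.11 (RUVs in DESeq2), -0.0020 (replicate block), -0.019 (the compared groups alone), -0.24 (the 2 samples left out) and -0.026 (length trend removed), and from -0.24 to 0.17 with 1 sample left out. Mxd1 ran from -0.072 to 0.18 with 1 sample left out. Mxd3 was 0.0075 (no filter), and from -0.075 to 0.11 with 1 sample left out. Max between genotypes at 3 h was -0.018 (RUVs in edgeR), -0.043 (the 2 samples left out) and -0.030 (length trend removed), and from -0.043 to 0.11 with 1 sample left out. Mxd4 was 0.020 (DESeq2 size factors), 0.016 (at least 10 counts in every sample), 0.022 (DESeq2), 0.027 (RUVs in edgeR), 0.081 (RUVs in DESeq2), 0.0038 (the compared groups alone) and 0.13 (the 2 samples left out), and from -0.42 to 0.16 with 1 sample left out. Mxi1 was 0.037 (DESeq2 size factors), 0.0088 (no filter), 0.030 (at least 10 counts in every sample), 0.033 (DESeq2), 0.015 (the compared groups alone), 0.0035 (the 2 samples left out) and 0.078 (length trend removed), and from -0.048 to 0.084 with 1 sample left out. Mlx was 0.031 (DESeq2 size factors), 0.0021 (no filter), 0.024 (at least 10 counts in every sample), 0.027 (DESeq2), 0.00067 (RUVs in DESeq2) and 0.0053 (the compared groups alone), and from -0.088 to 0.032 with 1 sample left out. Mxd1 in the interaction ran from -0.053 to 0.20 with 1 sample left out. Mxd4 ran from -0.25 to 0.33 with 1 sample left out. Depth limits Mycn, at 0 to 2 counts after 3 h, and Mxd3, at 5 to 14.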
